A study of Mus musculus with 12 samples.

Results

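Spp1, the mouse gene for osteopontin, was followed through the 12 libraries of a study of activated FGF receptor 1 in Wnt1-driven mammary epithelium. It is 1 gene of the 7318 in the deposited count table, and it was chosen by its own row of counts, with its high values after receptor activation already known. Its levels and changes are therefore given as a description with no test. The mice were female FVB/N animals of 4 weeks, and all of them, controls included, carried MMTV-Wnt1 and MMTV-iFgfr1. The treated mice had been injected intraperitoneally with AP20187 6 h before, and the control mice with vehicle over the same time. MMTV is a viral promoter that drives both transgenes mainly in mammary epithelium, iFGFR1 is an engineered FGF receptor 1 that the small molecule AP20187 dimerizes, and none of the 4 groups had AP20187 without iFGFR1. Cells came from collagenase digests of the third, the fourth and the fifth glands, kept in the elongation inhibitor cycloheximide and enriched by brief spins without a described sort. Each pellet gave RNA and ribosome footprints, so there were 3 libraries each of RNA with AP20187, RNA with vehicle, footprints with AP20187 and footprints with vehicle. Whether a pellet held 1 mouse or several is not given, so errors and p-values measure the spread between these pellets.

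Osteopontin is a secreted, heavily phosphorylated glycoprotein of the extracellular matrix and of milk. It binds integrins, most of them containing the alpha-v subunit, through an arginine-glycine-aspartate (RGD) motif, and it is also a ligand of CD44. It is made by bone cells, kidney epithelium, macrophages and mammary epithelium, where it is known to be abundant in lactation, and many carcinomas make it. Secreted kinases of the Fam20 family phosphorylate it, and phosphatases, transglutaminases and proteases modify the secreted protein.

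In the GENCODE M21 annotation of GRCm38, the assembly also called mm10, Spp1 lies on the plus strand of chromosome 5 between positions 104435118 and 104441050. It is a protein-coding gene with 7 annotated transcripts. The transcript with the longest coding sequence has 8 exons and 1411 bases, of which 885 are coding. A pair of stretches are shown because the results below refer to them, the RGD codons to the integrin receptors and the promoter to the transcription factors. The first is coding sequence of exon 7, chr5:104439451-104439519 on the plus strand, read 5′ to 3′ from the GRCm38 genome. Its capitals mark the RGD codons, which begin at codon 145 of 295 and occur at 1 place in the coding sequence.
Spp1 RGD codons: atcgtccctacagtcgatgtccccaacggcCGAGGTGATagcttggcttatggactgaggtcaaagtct
The second is RefSeq's promoter sequence for the same build, chr5:104434861-104435110 on the plus strand, the bases just before RefSeq's gene start. Its capitals mark matches to the letters TGTGGT, a RUNX motif, and AGGAAG, an ETS motif, on either strand.
Spp1 promoter: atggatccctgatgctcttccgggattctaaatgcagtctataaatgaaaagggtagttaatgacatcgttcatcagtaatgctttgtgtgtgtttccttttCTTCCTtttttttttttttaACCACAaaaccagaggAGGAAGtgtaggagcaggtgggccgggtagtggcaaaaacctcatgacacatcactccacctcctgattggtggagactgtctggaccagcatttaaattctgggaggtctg
The RUNX letters matched at 1 place, from 128 to 123 bases before the start on the minus strand, and 14.0% of the 32851 RefSeq promoters of this length held them. The ETS letters matched at 2 places, from 148 to 143 bases before the start on the minus strand and from 112 to 107 bases before it on the plus strand, and 29.5% of promoters held them. The AP-1 letters TGANTCA, present in 6.7% of promoters, and the TCF/LEF letters ATCAAAG, present in 3.2%, had 0 matches in this window. No match overlapped a match of the other motif. A match is a description of letters and not of binding.

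Values are in CPM, counts of a gene divided by the library's total over the listed genes, after a TMM correction of that total for composition, and put on a common scale. Totals were 94513818 to 251874393 counts in RNA libraries and 1772969 to 11018709 in footprint libraries. A count of 0 allows up to 0.0119 to 0.0317 CPM in RNA and up to 0.272 to 1.69 CPM in footprints, by 3 counts per library. Pearson correlations of log2 CPM between replicates, over genes, were 0.959 to 0.981 in RNA with AP20187, 0.976 to 0.987 in RNA with vehicle, 0.914 to 0.968 in footprints with AP20187 and 0.875 to 0.911 in footprints with vehicle.

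Spp1 RNA was much more abundant after 6 h of receptor activation. It had 4746, 3867 and 6248 CPM in AP20187 replicates 1, 2 and 3, against 438, 781 and 257 CPM in vehicle replicates 1, 2 and 3. The groups did not overlap, and the lowest AP20187 library lay 4.95-fold above the highest vehicle library. Vehicle replicate 3 was the lowest of the 6 and AP20187 replicate 3 the highest. The fitted difference was 3.33 ± 0.41 on the log2 scale (SE), or 10.1-fold, and it ranked 6 among the increases of 7314 genes tested. Without 1 library at a time the fitted difference was 3.02 to 3.85. The 95% counting error on any Spp1 value in either assay was 0.186% to 5.93% of that value, well below the spread between pellets, whose SD within groups was 0.62 in RNA and 0.64 in footprints on the log2 scale. Over all genes, 12.4% were called higher and 13.9% lower in RNA at an adjusted p under 0.05 in edgeR's quasi-likelihood test, and the median difference was 0.01.

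**Figure D1:**
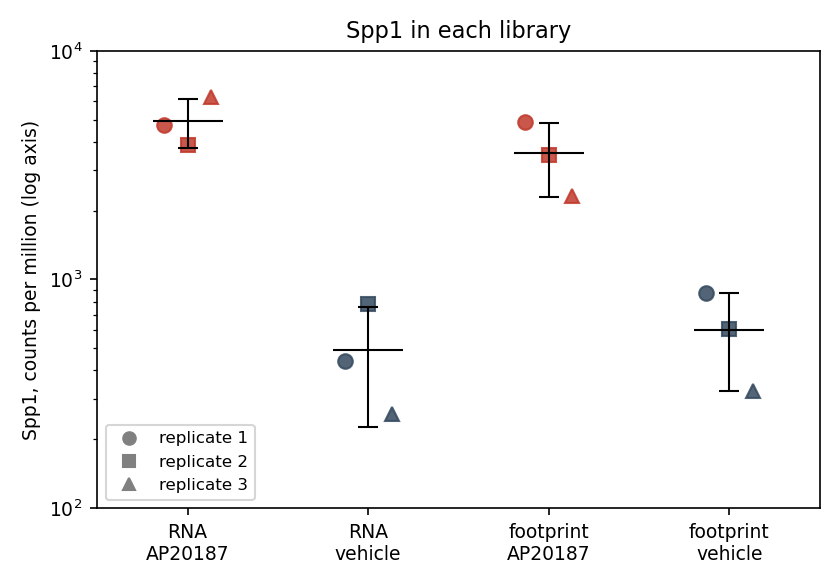
Spp1 level in CPM on a log axis in each of the 12 libraries, as points by replicate, with the group mean as a line and its SD as bars, for AP20187 and vehicle in RNA and in footprints. All AP20187 points lie above all vehicle points within each assay, from 2318 CPM upward with AP20187 and up to 871 CPM with vehicle.

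Footprints on Spp1 were also more abundant with AP20187. They stood at 4882, 3514 and 2318 CPM in AP20187 replicates 1, 2 and 3, against 871, 605 and 325 CPM in vehicle replicates 1, 2 and 3. Again the groups did not overlap, with 2.66-fold between the lowest AP20187 and the highest vehicle library. The footprint values of each group were highest in replicate 1 and lowest in replicate 3, an order that the RNA values did not share. Means were 3571 ± 1283 CPM with AP20187 and 600.2 ± 273 CPM with vehicle (SD, n = 3 each). The fitted log2 difference was 2.57 ± 0.41 (SE), or 5.95-fold, rank 20 among the increases of 7041 genes, and was 2.28 to 2.95 without 1 library at a time. In footprints 0.937% of genes were called higher (66) and 1.60% lower (113). Same-numbered footprint libraries deviated together, and with the replicate number as a block the counts were 353 higher and 362 lower. Without the block they were 0 to 3 higher and 0 lower once AP20187 replicate 1 or any 1 vehicle library was left out. Every footprint call named below from the main edgeR fit, without the block, was lost without each of those 4 libraries (adjusted p up to 0.163). Fn1 was also lost without AP20187 replicate 2.

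**Figure D2:**
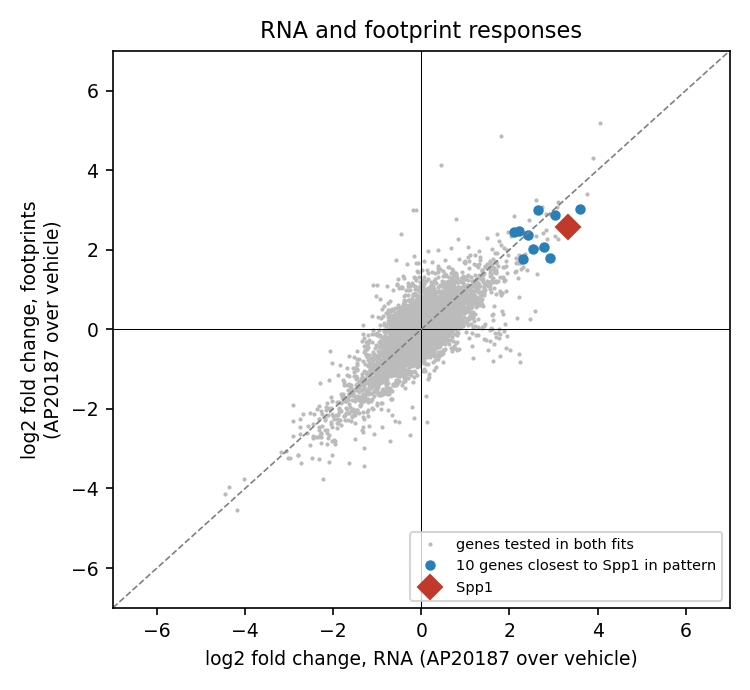
Log2 difference, AP20187 over vehicle, in footprints (vertical axis) against RNA (horizontal axis) for every gene tested in both, with Spp1 as a diamond, the 10 genes most like it in pattern as large points and a dashed line of equal differences. Spp1 sits at 3.33 in RNA and 2.57 in footprints.

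Ribosome footprints relative to RNA gave no uniform picture for Spp1. The ratio of footprint CPM to RNA CPM in the same pellet was 1.03, 0.909 and 0.371 in AP20187 replicates 1, 2 and 3, against 1.99, 0.774 and 1.26 in vehicle replicates 1, 2 and 3. The ranges overlapped through vehicle replicate 2 alone, and AP20187 replicate 3, which had the most Spp1 RNA and the fewest Spp1 footprints of its group, was the lowest. The mean log2 ratio was -0.51 ± 0.80 with AP20187 and 0.32 ± 0.68 with vehicle (SD, n = 3 each). The pairing of libraries into pellets follows the labels. Over 6796 genes, deviations from the group means correlated between the footprint and RNA libraries of a number at 0.470, 0.553 and 0.398 in AP20187 replicates 1, 2 and 3, against 0.0300, 0.0844 and 0.351 in vehicle replicates 1, 2 and 3, and footprint vehicle replicate 1 correlated more with RNA vehicle replicate 2 (0.183). The pairing of vehicle replicates 1 and 2, and with it the overlap, is therefore less firm. Within a library, 14.5% to 55.9% of tested genes had a lower ratio than Spp1 with AP20187, and 40.8% to 80.7% with vehicle. The fitted change in translational efficiency, footprints over RNA, was -0.82 ± 0.59 on the log2 scale (SE), against a median of -0.08 over 7315 genes, and 4.29% of genes had a lower value. It was -1.31 to -0.38 without 1 library at a time and -0.87 ± 0.46 with the pellet as a block. Across all genes, 0.00% were called higher or lower in translational efficiency by edgeR, with 194 higher and 156 lower at an unadjusted p under 0.05. DESeq2 called 8 higher and 2 lower, and limma voom called 0 in each direction. No gene of any list below was called in translational efficiency by edgeR.

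**Figure D3:**
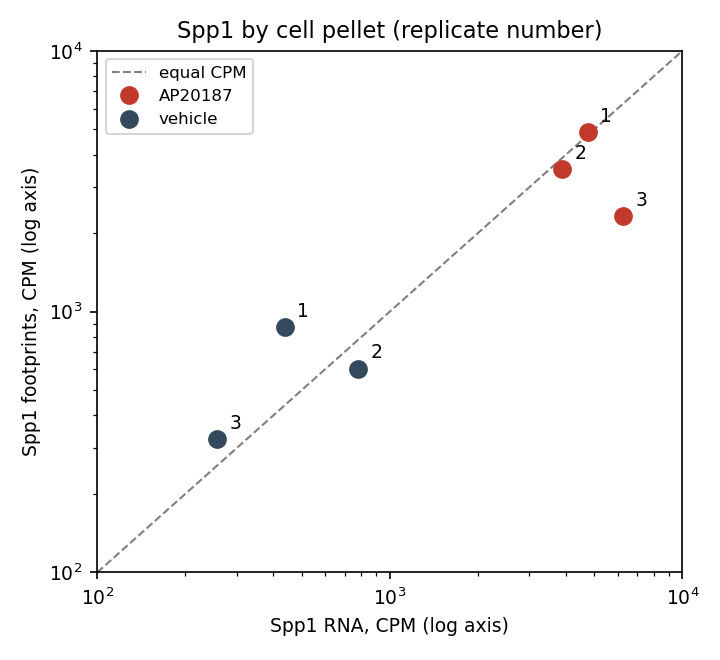
Spp1 footprint CPM against Spp1 RNA CPM for each of the 6 pellets, both on log axes, with a line of equal values. AP20187 replicate 3 lies farthest below the line, at a ratio of 0.371, and vehicle replicate 1 farthest above it, at 1.99.

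Per length of transcript, Spp1 was among the most abundant RNAs of the treated cells. It had 3511 ± 853 RNA CPM per transcript kilobase with AP20187 and 349 ± 189 with vehicle (SD, n = 3 each), against medians over genes of 22.1 with AP20187 and 21.4 with vehicle. This mean placed it at rank 6 of 7135 genes with an annotated length with AP20187 and at rank 169 with vehicle, and ranks in single libraries were 4 to 6 with AP20187 and 106 to 338 with vehicle. Footprints per coding kilobase were 4035 ± 1449 CPM with AP20187 and 678 ± 309 CPM with vehicle (SD, n = 3 each), which placed it at rank 26 with AP20187 and at rank 214 with vehicle. As a share of all counts, Spp1 took 0.400% to 0.615% of RNA libraries with AP20187 and 0.0249% to 0.0816% with vehicle.

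RNA levels of markers of several cell types differed between the groups along with Spp1. For the counts of markers below, 12.4% of all genes rose and 13.9% fell in RNA. The 9 listed of 14 luminal epithelial markers summed to 7083 to 9185 RNA CPM with AP20187 and 4114 to 4989 with vehicle, and 7 of 9 rose, with Krt7 falling. The 9 listed of 15 luminal progenitor genes summed to 14511 to 17614 CPM with AP20187 and 3424 to 6657 with vehicle, and 7 of 9 rose. The 7 listed of 10 fibroblast markers summed to 1288 to 1732 CPM with AP20187 and 3383 to 5867 with vehicle, and the 4 listed of 10 adipocyte markers to 47.0 to 101 CPM with AP20187 and 259 to 496 CPM with vehicle. The 4 listed of 9 endothelial markers summed to 286 to 327 CPM with AP20187 and 531 to 717 with vehicle, and the 11 basal markers to 3047 to 4745 CPM with AP20187 and 5440 to 6142 CPM with vehicle. The basal markers did not move together in RNA: 5 fell, among them Krt14 (log2 difference -1.08, adjusted p = 0.0116), while Krt17 (0.89, adjusted p = 0.0206) and Lgals7 (1.495, adjusted p = 0.0258) rose and 4 were not called. Footprint sums of luminal markers overlapped, at 7469 to 11558 CPM with AP20187 and 5634 to 7864 with vehicle. Those of basal markers also overlapped, at 3276 to 4951 CPM with AP20187 and 4426 to 6024 with vehicle. The progenitor, fibroblast, adipocyte and endothelial sums did not overlap in footprints and differed in the same direction as in RNA. Of the 9 luminal markers 0 rose and 1 fell in footprints, against 0.937% and 1.60% of all genes. In RNA none of these markers was at 0 in any library, and in footprints Adipoq, an adipocyte marker, was at 0 in vehicle replicate 1. In bulk pellets, fewer cells of a type and less RNA per cell cannot be told apart. The part of these shifts in the Spp1 difference was not tested. Divided by the summed luminal count of the same library, Spp1 RNA stood at 0.557, 0.546 and 0.680 with AP20187, against 0.0878, 0.158 and 0.0626 with vehicle. On that scale the log2 difference was 2.53 ± 0.32 in RNA and 2.03 ± 0.40 in footprints (SE). The luminal sum itself differed between the groups, and no scaling to the luminal progenitor sum was made.

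Macrophages and osteoclasts, other known sources of osteopontin, were also followed. The 7 listed of 23 macrophage markers summed to 310 to 486 RNA CPM with AP20187 and 292 to 573 with vehicle, overlapping ranges, and none was at 0. In footprints they summed to 529 to 1052 CPM with AP20187 and 1112 to 1245 with vehicle. Of the 7, Itgam, an integrin subunit of myeloid cells, rose in RNA (log2 1.01, adjusted p = 0.0310) and the other 6 were not called. Of the 7 osteoclast markers, Acp5 was listed, with a log2 RNA difference of 0.10 (adjusted p = 0.664). Ptprc was the listed gene of 10 T and natural killer cell markers, at -0.96 (adjusted p = 0.0957).

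Of the 11 subunits and receptors known to bind osteopontin, 8 were listed. In RNA 0 rose and 1 fell, against 12.4% and 13.9% of all genes. Their median log2 difference was -0.07 in RNA and -0.07 in footprints, against 0.01 and 0.03 over all genes. Itga5, the alpha subunit of an RGD-binding fibronectin receptor, had 60.7, 70.0 and 58.0 RNA CPM with AP20187, against 129, 110 and 162 with vehicle. It fell by 1.09 ± 0.17 (SE, adjusted p = 0.00736), a call that held without any 1 library, and its footprint difference of -0.99 ± 0.31 (adjusted p = 0.125) was called with the replicate block (adjusted p = 0.0332). Itgav, the alpha-v subunit shared by most osteopontin receptors, differed by -0.42 ± 0.18 in RNA (adjusted p = 0.112). Of its beta partners, Itgb1 differed by -0.18, Itgb3 by -0.23, Itgb5 by 0.03 and Itgb6 by 0.45, none of them called, and Cd44 differed by 0.05 ± 0.14 (adjusted p = 0.822). Itga8, which pairs with Itgb1 and binds RGD ligands, differed by 0.49 ± 0.16 (adjusted p = 0.0511). Without RNA AP20187 replicate 2, Itga8 (adjusted p = 0.0109) and Itgb6 (adjusted p = 0.0176) were called higher, and without RNA vehicle replicate 2 Itgav was called lower (adjusted p = 0.0352). Per transcript kilobase, Itgb1 led the receptors at 151 ± 7.42 RNA CPM with AP20187 and 171 ± 12.3 with vehicle (SD, n = 3 each). Cd44 followed at 68.3 ± 4.83 with AP20187 and 66.0 ± 7.41 with vehicle, and the other 6 stood at 3.08 to 25.5 with AP20187 and 3.60 to 30.5 with vehicle. On group means, Spp1 RNA per kilobase thus exceeded each listed receptor in both groups. With vehicle Spp1 stood at 349 ± 189 (SD, n = 3), a spread that reaches the level of Itgb1.

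Among 15 enzymes that modify or cleave osteopontin, 6 were listed. In RNA 1 rose and 0 fell, against 12.4% and 13.9% of all genes, with a median log2 difference of 0.27. Fam20a, a pseudokinase that activates the secretory-pathway kinase Fam20c, had 374, 333 and 212 RNA CPM with AP20187, against 76.2, 92.7 and 42.0 with vehicle. It rose by 2.12 ± 0.32 on the log2 scale (SE, adjusted p = 0.00685). In footprints its difference was 1.45 ± 0.34 (adjusted p = 0.0548), called with the replicate block (adjusted p = 0.000723). Fam20c itself, which phosphorylates osteopontin, differed by 0.44 ± 0.26 in RNA (adjusted p = 0.236). The cross-linking transglutaminase Tgm2 differed by -0.59 (adjusted p = 0.0679), the phosphatase Alpl by -0.19 (adjusted p = 0.598) and the pyrophosphate-forming Enpp1 by 0.44 (adjusted p = 0.0555).

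The relatives of Spp1 in the SIBLING family of acidic matrix proteins, Dspp, Dmp1, Ibsp and Mepe, were not among the listed genes and so were not analysed. They lie upstream of Spp1 on chromosome 5, Mepe at 96.5 kb and Ibsp at 123.6 kb. Of the 13 protein-coding genes within 500 kb of Spp1, these relatives among them, 4 were listed. Pkd2, a cation channel gene 18.4 kb downstream, differed by -0.22 in RNA (adjusted p = 0.508). Hsd17b11, a steroid and lipid-droplet dehydrogenase, differed by 0.19 (adjusted p = 0.293). Nudt9, an ADP-ribose hydrolase, rose by 0.59 ± 0.16 (SE, adjusted p = 0.0311), a call lost without RNA vehicle replicate 1, vehicle replicate 3 or AP20187 replicate 1 (adjusted p up to 0.121). Sparcl1, a matricellular protein gene 321.4 kb upstream, fell by 0.63 ± 0.18 (adjusted p = 0.0362). All 4 lay below the 3.33 of Spp1 itself. Spp1 was chosen with its high values known, so this comparison says nothing about its region.

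Other matrix proteins that were called mostly fell. Of 24 other matricellular proteins, which sit in the matrix and signal rather than build it, 3 were listed. Against 12.4% higher and 13.9% lower over all genes in RNA, 0 rose and 2 fell. These were Sparcl1 and Tgfbi, an integrin-binding matrix protein, which fell by 1.04 (adjusted p = 0.0400). Both RNA calls were lost without vehicle replicate 3, AP20187 replicate 1 or AP20187 replicate 3, Sparcl1 also without vehicle replicate 1 and Tgfbi also without vehicle replicate 2 (adjusted p up to 0.147). The Tgfbi call was also lost with limma voom (adjusted p = 0.0520). In footprints Tgfbi was called lower with the replicate block (adjusted p = 0.0127). In RNA the same block took away the calls of Sparcl1 (adjusted p = 0.0869) and Tgfbi (adjusted p = 0.102). The fibroblast markers given above moved in the same direction as these genes.

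Of 12 other genes for ligands of RGD-binding alpha-v integrins, or for chains of such ligands, 7 were listed. They are called RGD ligands here, and their sequences were not searched for the motif. In RNA 1 rose and 4 fell, against 12.4% and 13.9% of all genes, with a median of -0.88. Fn1, fibronectin, had 192, 205 and 160 RNA CPM with AP20187, against 553, 384 and 634 with vehicle. Its log2 difference was -1.50 ± 0.21 in RNA (SE, adjusted p = 0.00625) and -1.70 ± 0.36 in footprints (adjusted p = 0.0384), a fall in both. Fgb, the fibrinogen beta chain, had 5.42, 21.3 and 3.71 RNA CPM with AP20187, against 88.8, 56.8 and 93.5 with vehicle, and fell by 2.97 ± 0.62 in RNA (adjusted p = 0.0139) and by 3.24 ± 0.57 in footprints (adjusted p = 0.0222). The RNA calls of Fn1 and Fgb held without any 1 library. Nid1, a basement membrane protein, fell by 0.88 (adjusted p = 0.0187) and Fbn1, the microfibril protein fibrillin, by 0.96 (adjusted p = 0.0254) in RNA, calls lost without vehicle replicate 1, vehicle replicate 3 or AP20187 replicate 1 (adjusted p up to 0.0965). Mfge8, a secreted milk fat globule protein, rose by 0.75 (adjusted p = 0.0144), a call lost without vehicle replicate 1 or vehicle replicate 3 (adjusted p up to 0.0697). In footprints 2 of the 7 fell, Fn1 and Fgb, against 1.60% of all genes. With the replicate block 4 fell, which added Nid1 (adjusted p = 0.00400) and Fbn1 (adjusted p = 0.0164). The block raised the footprint calls over all genes too, as given above. In RNA the same block took away the calls of Nid1 (adjusted p = 0.0628) and Fbn1 (adjusted p = 0.0811).

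**Figure D4:**
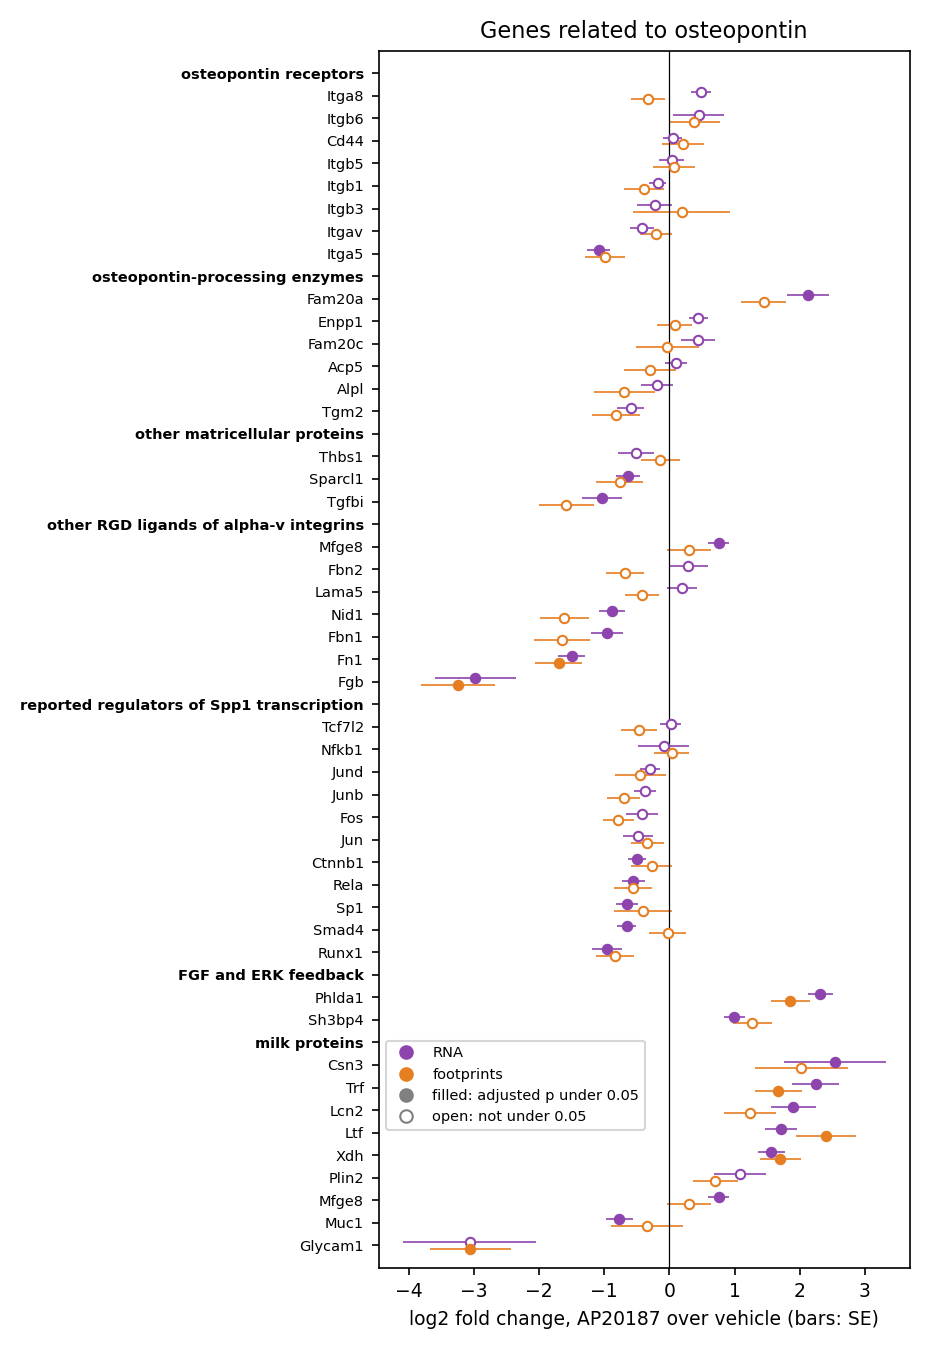
Log2 difference, AP20187 over vehicle, with its SE, in RNA and in footprints for the listed receptors, enzymes, other matricellular proteins, other RGD ligands, regulators, FGF and ERK feedback genes and milk proteins, 1 row per gene, with filled points for an adjusted p under 0.05. In RNA the receptors lie between -0.42 and 0.49 apart from Itga5 at -1.09, and Fam20a reaches 2.12.

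Of 29 factors reported to act on Spp1 transcription, 11 were listed. In RNA 0 rose and 5 fell, against 12.4% and 13.9% of all genes, with a median log2 difference of -0.48. In footprints 0 were called, against 0.937% higher and 1.60% lower over all genes. Runx1, whose motif letters occur in the promoter window above, had 105, 140 and 72.3 RNA CPM with AP20187, against 214, 174 and 228 with vehicle, and fell by 0.96 ± 0.23 (SE, adjusted p = 0.0223). Smad4, the shared partner of TGF-beta and BMP signals, fell by 0.66 (adjusted p = 0.0168), and the GC-box factor Sp1 fell by 0.65 (adjusted p = 0.0288). Ctnnb1, the beta-catenin of the WNT pathway, fell by 0.50 (adjusted p = 0.0352), and Rela, an NF-kappaB subunit, by 0.55 (adjusted p = 0.0488). These calls were fragile: 0 of the 5 remained called without RNA vehicle replicate 1 or vehicle replicate 3, 1 without AP20187 replicate 1 and 2 without AP20187 replicate 3. Rela was also lost with DESeq2-type size factors (adjusted p = 0.0519). The AP-1 genes Fos, Jun, Junb and Jund differed by -0.42, -0.48, -0.37 and -0.29 in RNA, and none was called. With the replicate block, which raised footprint calls over all genes, 3 of the 11 were called lower in footprints, Runx1 among them (adjusted p = 0.0344). In RNA the same block took away the calls of Runx1 (adjusted p = 0.0592), Sp1 (adjusted p = 0.0674) and Ctnnb1 (adjusted p = 0.0542).

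Of 18 genes known to respond to FGF and ERK signals, 2 were listed, and both rose in RNA, where 12.4% of all genes rose. Phlda1, a pleckstrin homology-like protein induced by ERK, rose by 2.32 ± 0.19 in RNA (SE, adjusted p = 0.00488) and by 1.85 ± 0.30 in footprints (adjusted p = 0.0202). Sh3bp4, an endocytic regulator, rose by 1.00 ± 0.16 in RNA (adjusted p = 0.00777), and its footprint difference of 1.27 (adjusted p = 0.0537) was called with the replicate block (adjusted p = 0.00561).

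Osteopontin is itself a milk protein, and 9 of 18 other milk proteins were listed. In RNA 6 rose and 1 fell, against 12.4% and 13.9% of all genes, with a median of 1.57. Xdh, the milk fat globule xanthine oxidoreductase, rose by 1.57 (adjusted p = 0.00625), the iron-binding Ltf by 1.71 (adjusted p = 0.00660) and the iron carrier Trf by 2.25 (adjusted p = 0.00755). Lcn2, a siderophore-binding lipocalin, rose by 1.90 (adjusted p = 0.00950), and Mfge8 rose as given above. Csn3, kappa casein, had 8417, 5136 and 10217 RNA CPM with AP20187, against 987, 2903 and 211 with vehicle. Its rise of 2.53 ± 0.78 (adjusted p = 0.0455) was lost without vehicle replicate 1, vehicle replicate 3, AP20187 replicate 1 or AP20187 replicate 3 (adjusted p up to 0.131). Muc1 and Glycam1 are named after their values were seen, as members that went the other way. Muc1, a membrane mucin, fell by 0.77 in RNA (adjusted p = 0.0302), a call lost without the same 4 libraries, and Glycam1, a secreted mucin of milk, differed by -3.07 in RNA (adjusted p = 0.0581) and fell by 3.05 in footprints (adjusted p = 0.0320). In footprints 3 of the 9 rose, Xdh, Ltf and Trf, and Glycam1 fell, against 0.937% higher and 1.60% lower over all genes. With the replicate block, which raised footprint calls over all genes, 6 rose, Csn3 (adjusted p = 0.000144) and Lcn2 (adjusted p = 0.00253) among them. In RNA the same block took away the calls of Csn3 (adjusted p = 0.0863) and Muc1 (adjusted p = 0.0679). Ltf, Trf, Lcn2 and Mfge8 also belong to the luminal progenitor genes summed above.

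The genes whose profile over the 12 libraries was most like that of Spp1 were named by the root mean square difference of log2 CPM, each gene centred on the vehicle mean of its assay, over 6710 genes with at least 5 CPM on average in both assays. This likeness uses the contrast that chose Spp1, so it is a description. The closest was Chn2, a chimaerin that stimulates the GTPase activity of Rac, at 0.38. Chn2 had 251, 209 and 204 RNA CPM with AP20187, against 28.0, 39.7 and 12.8 with vehicle. Within vehicle RNA it was highest in replicate 2, as Spp1 was, and lowest in replicate 3, as Spp1 and all 10 nearest genes were. With AP20187 it was lowest in replicate 3, where Spp1 was highest. The water channel Aqp5 followed at 0.45, then the arachidonate-activating acyl-CoA synthetase Acsl4 at 0.57, Wnt1 at 0.57 and the nucleoside transporter Slc28a3 at 0.65. Counts of Wnt1 can hold reads of the transgene that all mice carried. Next came Sowahb at 0.68, Csn3 at 0.68, the glutaredoxin Glrx at 0.72, the neural crest and mammary progenitor factor Sox10 at 0.75 and the tight junction protein Cldn1 at 0.76. The gene after these stood at 0.77 and the median of all 6710 at 2.23. With RNA alone 7 of the 10 were again among the nearest 10, and with a prior count of 0.5 all 10 were.

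Levels of these genes covered a wide range. Csn3 averaged 7923 ± 2576 RNA CPM with AP20187 and 1367 ± 1386 with vehicle, and 10562 ± 6756 footprint CPM with AP20187 and 2596 ± 2153 with vehicle (SD, n = 3 each). Chn2 averaged 221 ± 25.9 RNA CPM with AP20187 and 26.8 ± 13.5 with vehicle, and Acsl4 averaged 775 ± 173 with AP20187 and 125 ± 37.4 with vehicle. Slc28a3 averaged 3412 ± 1885 CPM with AP20187 and 281 ± 96.4 with vehicle (SD, n = 3 each), and its log2 difference of 3.60 in RNA exceeded that of Spp1. Aqp5 rose by 2.78 in RNA, and its footprint call varied with the setting. In edgeR its footprint adjusted p was 0.0511, and 0.000446 with the replicate block. It was 0.0476 without the low-count filter and 0.0532 with DESeq2-type size factors. DESeq2 gave 0.000314 and limma voom 0.0252, both without the block. Wnt1 rose by 2.93 in RNA, with an edgeR footprint adjusted p of 0.000768 with the block and 0.0659 without it. Without the block it was 0.0637 with no filter and 0.0673 with DESeq2-type size factors. DESeq2 gave 0.00198 and limma voom 0.0341.

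**Figure D5:**
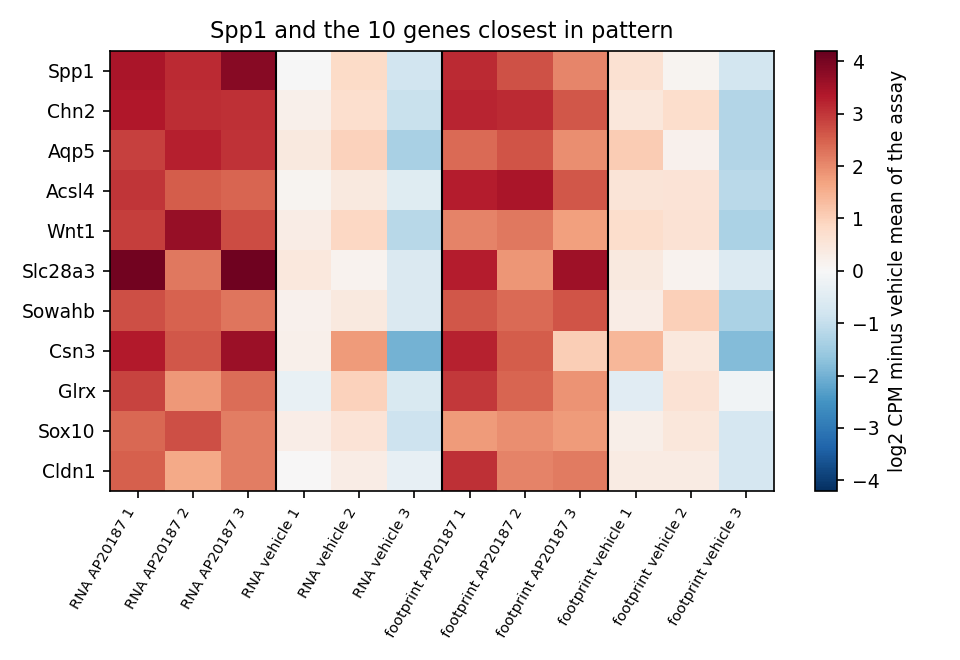
Log2 CPM minus the vehicle mean of the same assay, in colour, for Spp1 and the 10 genes most like it (rows) in the 12 libraries (columns). Chn2, in the row next to Spp1, has a root mean square difference of 0.38 from it.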

How the data were processed

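RNA and ribosome footprints were measured in 3 pellets per treatment. The authors deposited raw counts per gene symbol for the 12 libraries, without normalization. Tools named in the submitters' processing notes are HTSeq, Bowtie2, STAR, cutadapt and bcl2fastq 1.8.3, with mm10 as the build. Not given in the sources used here were the strand and multi-mapping settings, the region in which footprints were counted and how the 7318 genes were selected. Totals are therefore over listed genes, and counts shared by similar or overlapping genes are uncertain. Intervals and floors cover counting error only.

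Spp1, the gene lists and the tests were chosen with earlier results of these data known. Genes were tested with edgeR 4.0.16 in R 4.3.3 (TMM, filterByExpr, quasi-likelihood test, 2-sided, Benjamini-Hochberg threshold 0.05), with treatment as the only term on 6 RNA or 6 footprint libraries, and translational efficiency as the assay by treatment interaction over 12. SE was taken from the F statistic. On simulated counts with 200 genes changed by a log2 of 2, the fits recovered 99.5% for RNA, 98.0% for footprints and 74.5% for translational efficiency. Unchanged genes were called at 12 for RNA, 5 for footprints and 17 for translational efficiency. The simulation gave every gene of a fit the same dispersion and had no replicate effect, so these shares are not the power in the real libraries. Named were Spp1, every receptor, up to 5 called genes per list by smallest RNA p, the 10 most like Spp1 (log2 CPM, prior count 2) and listed genes within 500 kb; markers, uncalled members and the last milk genes are named beside their counts. Lengths are those of GENCODE M21 for the 7135 matched genes, RNA per transcript length and footprints per coding length, and the promoter is RefSeq's, GRCm38.p6, with 250 bases. Same-numbered footprint libraries correlated in their deviations from group means (0.203, 0.284 and 0.405 over 6796 genes), each over 0.1, so the blocked footprint fit is given where it changed a call. RNA and footprints of a number came from the same pellet, per the labels' protocols. DESeq2 1.42.0, limma 3.58.1 voom, other size factors, no filter, blocks, luminal scaling and leaving out each library were tried.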

Additional observations from a re-analysis of the deposited data

How the results depend on the processing

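Spp1 kept its direction in RNA (3.02 to 3.85 without 1 library), footprints (2.28 to 2.95) and translational efficiency (-1.31 to -0.38), and under every other setting; scaled to summed luminal markers its RNA difference was 2.53. With the replicate number as a block its log2 change in translational efficiency was -0.94 ± 0.54 (SE). RNA libraries of replicate 1 deviated together (0.215, over the 0.1 used for footprints), and those of replicates 2 and 3 did not (-0.0581 and -0.0308). The block in RNA gave 620 genes higher and 661 lower against 906 and 1013, with 1 enzyme, 2 RGD ligands, 2 regulators and 0 milk proteins lower. With it Sparcl1, Tgfbi, Nid1, Fbn1, Runx1, Sp1, Ctnnb1, Csn3, Nudt9 and Muc1 lost their RNA calls (adjusted p = 0.0542 to 0.102). In footprints the block gave 353 genes higher and 362 lower, with 1 receptor, 4 RGD ligands and 3 regulators lower and 1 enzyme and 6 milk proteins higher. DESeq2 gave 213 higher and 315 lower in footprints, with 1 enzyme higher, 4 RGD ligands lower and 1 regulator lower, and in RNA 1 receptor and 2 enzymes higher and 1 enzyme and 2 milk proteins lower; in translational efficiency it gave 8 and 2. Limma voom gave 2 milk proteins lower in RNA and, like the fit without a filter, 1 enzyme higher in footprints. With the block Itgb5 stood at -0.00299 in RNA and Smad4 at 0.0182 in footprints, both opposite in sign to the unblocked fit. The causes were not tested.

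Without 1 library at a time, genes higher in RNA were 247 (without vehicle replicate 3) to 1048 and genes lower in RNA 291 to 1166; without vehicle replicate 1 they were 307 and 410, and without AP20187 replicate 1 they were 388 and 394. Footprint calls were 0 to 84 higher and 0 to 123 lower, and translational efficiency calls 0 to 1 higher. In RNA the lists gave 0 to 2 receptors higher and 1 to 2 lower, 0 to 1 enzymes lower, 0 to 1 RGD ligands higher and 2 to 4 lower, 0 to 5 regulators lower and 0 to 2 milk proteins lower. In footprints they gave 0 to 1 enzymes higher, 0 to 2 RGD ligands lower, and 0 to 3 milk proteins higher and 0 to 1 lower. Small differences crossed 0: in RNA Itgb3 (-0.44 to 0.0453), Cd44 (-0.0165 to 0.12) and Itgb5 (-0.20 to 0.20), and in footprints Itgb3 (-0.34 to 0.61), Itgb5 (-0.13 to 0.37), Pkd2 (-0.23 to 0.25), Muc1 (-0.86 to 0.10), Smad4 (-0.21 to 0.28), Mfge8 (-0.0272 to 0.54) and Cd44 (-0.0704 to 0.48).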
